A study of Mus musculus with 36 samples.

Results

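The comparison set wild-type EpiSC, labelled as epiblast-like stem cells and grown with Activin A and FGF2, against wild-type mouse embryonic stem cells grown with LIF and fetal calf serum, called ESCFCS in the labels. Every library whose title named 1 of these states and the WT genotype was taken, which gave 6 EpiSC and 6 ESCFCS libraries, 12 of the 36 in the series. Both groups came from the same 3 lines, which the titles call Bod1L, Mll2 and Setd1a after the gene that can be deleted in each, with 2 libraries per line and state labelled as biological replicates. Knockout titles name tamoxifen and those of wild-type cells do not. Each line stands for 1 line only. The p-values over all lines rest on the spread between cultures and on how far the state difference varied between these lines. Those within single lines and of line dependence rest on the spread between cultures of these lines. Cell state and medium changed together.

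Mouse embryonic stem cells kept with LIF resemble the naive epiblast of the blastocyst: LIF acts through its receptor and STAT3 on a circuit of transcription factors that includes Esrrb, Klf4 and Tfcp2l1. EpiSC resemble the later, primed epiblast, depend on Activin and FGF signalling, shut down the naive circuit while they keep Pou5f1, and can express genes of the first germ layers. The primed genome is more highly methylated than that of the naive epiblast, and promoters of many germline genes are silenced by methylation as the epiblast matures.

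RNA was measured by strand-specific sequencing of poly(A) RNA, as reads per gene. EpiSC libraries held 25.2 to 34.4 M gene counts (median 31.6) and ESCFCS libraries 30.3 to 39.6 M (median 33.7). Levels are given in CPM, counts scaled to the normalised library size. Differences are log2 fold changes of EpiSC over ESCFCS with line as a covariate, ± SE, and a gene is called at an adjusted p below 0.05 (edgeR quasi-likelihood F test with Benjamini-Hochberg adjustment over all genes tested). In bulk RNA, fewer cells of a kind and less RNA per cell cannot be told apart.

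The libraries differed in ways that the state label does not give. In the first principal component, which held 49.1% of the variance, the EpiSC libraries of the Setd1a line lay at -4.48 and -13.1, between the other 4 EpiSC libraries (-81.3 to -60.8) and the ESCFCS libraries (19.8 to 58.5). All 12 EpiSC libraries of the series, knockouts included, belong to a later block of 13 library numbers, and all ESCFCS libraries to the earlier block of 23, so state and block cannot be told apart. Mitochondrial genes took 1.98% to 3.55% of counts in EpiSC and 3.60% to 5.09% in ESCFCS libraries. The difference was -1.44 percentage points (2-sided exact permutation test within lines, p = 0.00926, the smallest that the 216 arrangements can give).

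**Figure D1:**
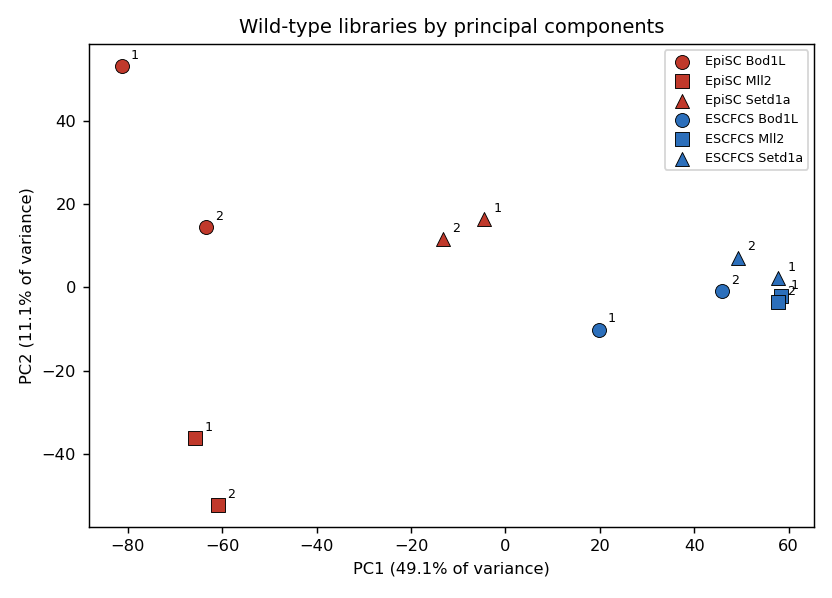
Principal components 1 and 2 of the 12 wild-type libraries (log2 CPM, axes labelled with their share of variance, 49.1% and 11.1%), with EpiSC first in the legend and a marker for each line. The 6 EpiSC libraries lie below 0 on component 1 and the 6 ESCFCS libraries above it, and the Setd1a line's EpiSC libraries, at -4.48 and -13.1, lie nearest to the ESCFCS libraries.

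Of 20098 genes tested, 7813 (38.9%) were called, 4001 higher (19.9%) and 3812 lower (19.0%) in EpiSC. With a log2 fold change of at least 1 in size, 2574 genes (12.8%) were higher and 1938 (9.64%) lower. CPM values of the groups did not overlap for 1325 genes that were higher (6.59%) and for 1433 that were lower in EpiSC (7.13%). Genes of cholesterol synthesis, mesenchyme and Hox clusters were called mostly higher, and naive pluripotency and germline genes mostly lower, as the plot of called shares by gene list shows. List counts over all lines are to be read against the shares over all genes, 19.9% higher and 19.0% lower. Without the Setd1a line 6837 of 19148 genes were called (35.7%), among them 3092 of the 4001 and 2992 of the 3812 genes called with it. Leaving out the Bod1L line left 3950 calls and leaving out the Mll2 line 3285.

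**Figure D2:**
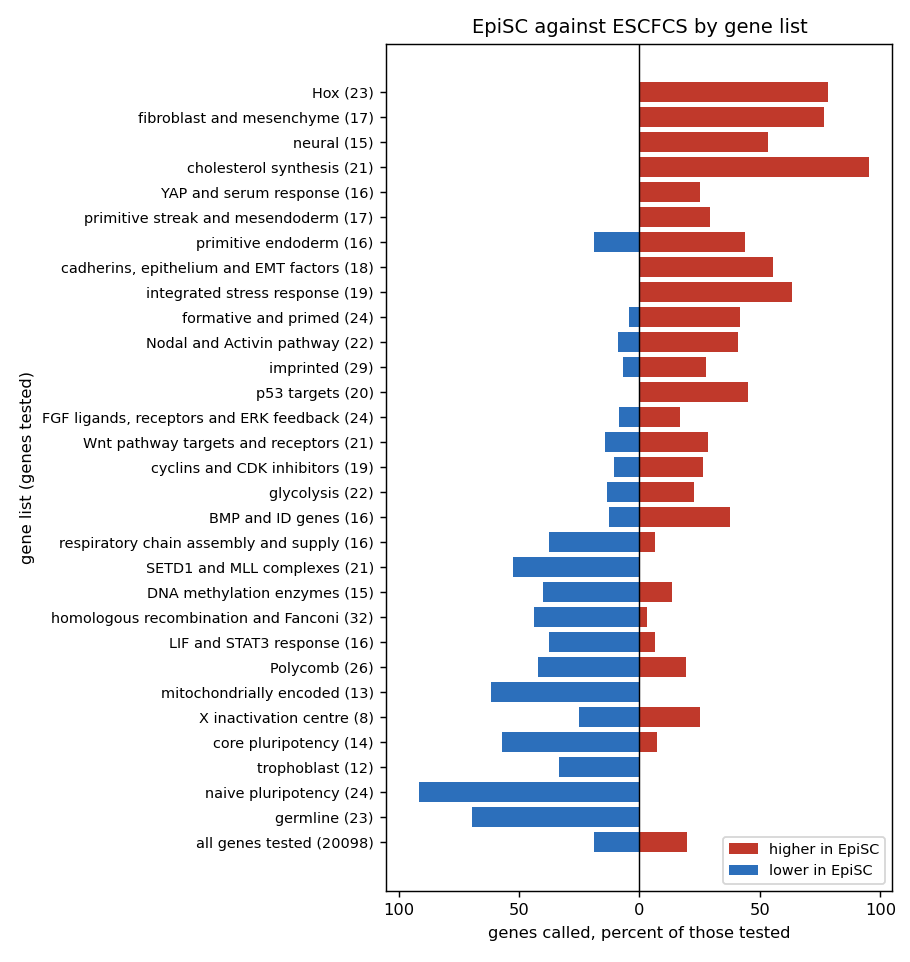
Share of tested members of each gene list called higher (right) or lower (left) in EpiSC than in ESCFCS, in percent, with the shares over all genes tested (19.9% and 19.0%) as the comparison. Cholesterol synthesis has 20 of 21 members called higher and naive pluripotency 22 of 24 called lower.

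Naive pluripotency genes fell. Of 24 listed, 22 were called lower and none higher, with a median log2 fold change of -4.49 against 0.0171 over all genes, and 13 of the 24 had no overlap between the groups. Zfp42, also known as Rex1 and a standard marker of naive cells, had 0.0725 and 0.0565 CPM in the Bod1L line, 0.574 and 2.51 in the Mll2 line and 103 and 42.5 in the Setd1a line among EpiSC libraries. In ESCFCS it had 372 and 769 CPM in the Bod1L line, 66.0 and 322 in the Mll2 line and 269 and 494 in the Setd1a line. The log2 fold change was -6.77 ± 1.62 (adjusted p = 0.00825), and the 2 EpiSC libraries of the Setd1a line held most of the EpiSC signal, the higher of them above the lowest ESCFCS library. Esrrb, an orphan nuclear receptor at the centre of the naive circuit, had 1.59 and 0.763 CPM in the Bod1L line, 2.29 and 4.21 in the Mll2 line and 165 and 136 in the Setd1a line in EpiSC. The ESCFCS libraries had 208 and 299 CPM in the Bod1L line, 643 and 466 in the Mll2 line and 231 and 355 in the Setd1a line, and Esrrb fell by 5.95 on the log2 scale (SE 1.35, adjusted p = 0.00659) with no overlap between groups.

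The remaining EpiSC level of the naive genes depended on the line. The median naive gene was at 2.81% of its ESCFCS level in the Bod1L line, 0.951% in the Mll2 line and 44.4% in the Setd1a line, and 11 of the 24 genes were called line dependent (F test of the difference between lines), against 0.566% of all genes. The calls over all genes depended on single libraries, as given with the line comparison, and 8 and 12 were left without the first and second ESCFCS library of the Setd1a line. Tdh, a threonine dehydrogenase that mouse embryonic stem cells depend on, was at 0.275%, 0.352% and 28.6% of ESCFCS in these lines, and Tcl1, a coactivator of AKT, at 0.0495%, 0.0514% and 57.4%. Klf4, a LIF target, had 2.57 to 115 CPM (median 5.39) in EpiSC and 70.9 to 526 CPM (median 174) in ESCFCS (-4.34 ± 1.00, adjusted p = 0.00685). Without the Setd1a line the same number of naive genes was called (22 lower) and the median was -6.02. Without the Bod1L line 11 of 24 were called lower (1662 of 19141 over all genes), and without the Mll2 line 5 (1402 of 19312).

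**Figure D3:**
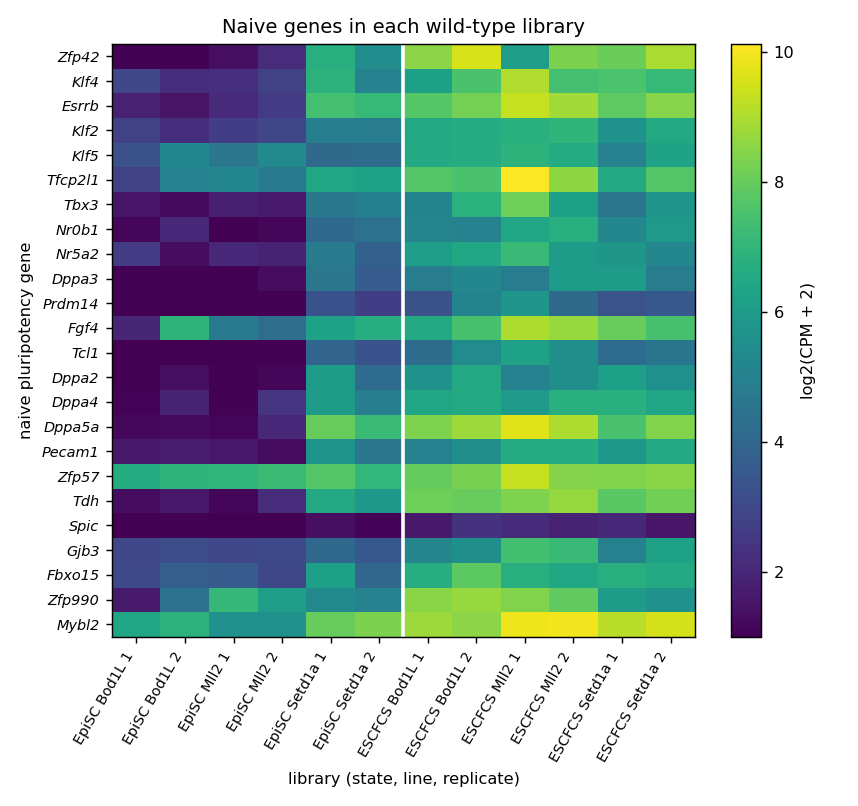
Heat map of naive pluripotency genes as log2(CPM + 2), with the 6 EpiSC libraries left of the 6 ESCFCS libraries and line and replicate named below. The EpiSC columns of the Setd1a line are brighter than those of the other lines, with Esrrb at 165 and 136 CPM against 0.763 to 4.21 CPM in the other 4 EpiSC libraries.

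Among 14 factors of general pluripotency 8 were called lower and 1 higher (median -0.94). The 8 include Dppa5a, which is also in the naive list (-7.58 ± 2.11, adjusted p = 0.0164). Sox2, which binds DNA together with the Pou5f1 protein, had 34.6 to 162 CPM (median 101) in EpiSC and 271 to 604 CPM (median 408) in ESCFCS, and fell without overlap (-2.19 ± 0.38, adjusted p = 0.00184). Pou5f1 itself, coding for OCT4, was not called (-0.10 ± 0.51, adjusted p = 0.898). Its EpiSC levels were 321 and 1599 CPM in the Bod1L line, 261 and 226 in the Mll2 line and 266 and 1332 in the Setd1a line, a wide spread in which replicates of the Bod1L and Setd1a lines differed several fold, against 511 to 707 CPM (median 636) in ESCFCS. Nanog had 27.9 to 406 CPM (median 185) in EpiSC and 244 to 1106 CPM (median 419.9) in ESCFCS (-1.43 ± 0.55, adjusted p = 0.0608). It passed the threshold without the second EpiSC library of the Setd1a line (adjusted p = 0.0492) and without the whole line (adjusted p = 0.0411).

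The LIF pathway list held 6 called lower and 1 called higher of 16 genes, with a median of -0.49 that was -1.07 without the Setd1a line. Klf4 and Tfcp2l1, among the 6 called lower, are also in the naive list. At the receptor, Lifr had 21.7 to 85.9 CPM (median 43.3) in EpiSC and 87.4 to 191 CPM (median 149) in ESCFCS, and fell by 1.61 (SE 0.26, adjusted p = 0.00145). Of the transducers, Jak1 rose (0.67 ± 0.15, adjusted p = 0.0059). Its levels were 76.7 to 113 CPM (median 96.7) in EpiSC and 46.0 to 74.1 CPM (median 61.7) in ESCFCS. Stat3 was not called at 39.6 to 132 CPM (median 77.0) in EpiSC and 80.3 to 149 CPM (median 98.7) in ESCFCS (-0.37 ± 0.23, adjusted p = 0.235). Among the targets, Socs3, the feedback inhibitor that STAT3 induces, had 24.3 and 21.9 CPM in the Bod1L line, 24.0 and 30.3 in the Mll2 line and 61.7 and 23.1 in the Setd1a line in EpiSC. ESCFCS libraries had 47.6 and 62.5 CPM in the Bod1L line, 120.5 and 82.4 in the Mll2 line and 82.9 and 86.3 in the Setd1a line (-1.38 ± 0.25, adjusted p = 0.00207). Only the first EpiSC library of the Setd1a line reached into the ESCFCS range. Tfcp2l1, a STAT3 target of the naive circuit, had 4.86 to 81.2 CPM (median 33.4) in EpiSC and 90.5 to 1119 CPM (median 203) in ESCFCS (-3.04 ± 0.71, adjusted p = 0.00738).

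Of 24 formative and primed genes 10 were called higher and 1 lower (median 0.78), and the textbook markers were uneven. Fgf5, a ligand of the postimplantation epiblast, had 37.1 and 68.8 CPM in the Bod1L line, 116 and 280.5 in the Mll2 line and 3.98 and 15.2 in the Setd1a line in EpiSC. ESCFCS libraries had 7.05 and 13.2 CPM in the Bod1L line, 3.38 and 6.04 in the Mll2 line and 23.4 and 1.51 in the Setd1a line. It was not called (2.44 ± 1.08, adjusted p = 0.0962), and the Setd1a line's EpiSC libraries lay within the ESCFCS range. Fgf5 was called without that line (3.86 ± 0.76, adjusted p = 0.00738), and without either its first EpiSC library (adjusted p = 0.0326) or its first ESCFCS library (adjusted p = 0.0048). Otx2 and Pou3f1, transcription factors of the formative state, had medians of 37.7 and 38.5 CPM in EpiSC and 37.8 and 38.2 CPM in ESCFCS (adjusted p = 0.791 and 0.979). In the Bod1L, Mll2 and Setd1a lines Otx2 differed by -2.18, 2.08 and -0.67 on the log2 scale and Pou3f1 by -0.75, 1.62 and -0.69. None of these was called, and neither gene was called line dependent (edgeR F test, adjusted p = 0.371 and 0.394). Wnt8a, a Wnt ligand of the posterior epiblast, rose (3.19 ± 0.71, adjusted p = 0.00596), with 6.18 to 98.6 CPM (median 22.4) in EpiSC and 0.0644 to 7.23 CPM (median 4.29) in ESCFCS. Foxd3, a forkhead repressor of stem cells and epiblast, was the 1 member that fell (-1.51 ± 0.40, adjusted p = 0.0133), with 1.62 to 10.9 CPM (median 6.07) in EpiSC and 12.2 to 22.8 CPM (median 16.4) in ESCFCS.

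Primitive streak and endoderm genes varied widely between lines and cultures. Of 18 listed, 17 were tested, and 5 were called higher (29.4%, against 19.9% of all genes) and none lower. Within lines, 2 of 18 were called higher and 4 lower in the Bod1L line (8.74% and 9.58% of all genes). In the Mll2 line 11 were called higher and 0 lower (10.5% and 9.70%), and in the Setd1a line 0. Without the Mll2 line 1 of 16 tested was called higher and 1 lower. The median was then -0.055, against 1.09 with all lines. Cer1, a secreted inhibitor of Nodal, BMP and Wnt made by anterior endoderm, had 10.2 and 0.480 CPM in the Bod1L line, 34.5 and 151 in the Mll2 line and 0.461 and 0.197 in the Setd1a line in EpiSC and at most 0.121 CPM in ESCFCS, so the groups did not overlap (adjusted p = 0.00461). Foxa2, a transcription factor of endoderm and the anterior streak, followed the same libraries, with 12.0 and 1.04 CPM in the Bod1L line, 35.6 and 86.5 in the Mll2 line and 0.634 and 0.197 in the Setd1a line in EpiSC and at most 0.257 CPM in ESCFCS (adjusted p = 0.00925). T, the streak factor Brachyury, went in opposite ways between lines. Its EpiSC levels were 15.6 and 1.67 CPM in the Bod1L line, 117 and 659.5 in the Mll2 line and 2.74 and 8.68 in the Setd1a line. ESCFCS libraries had 83.0 and 41.3 CPM in the Bod1L line, 0.290 and 0.238 in the Mll2 line and 6.26 and 15.8 in the Setd1a line. T was not called on average (-0.12 ± 2.03, adjusted p = 0.97) and was called line dependent (adjusted p = 0.0366). Eomes, a partner of T in mesendoderm, had 3.32 to 63.8 CPM (median 12.4) in EpiSC and 6.87 to 35.0 CPM (median 8.27) in ESCFCS (adjusted p = 0.737). The count of 5 dropped to 3 without the first EpiSC or first ESCFCS library of the Bod1L line, or without either ESCFCS library of the Mll2 line. The line dependence of T was lost without any 1 of the 6 ESCFCS libraries (adjusted p from 0.0671 to 0.182).

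Of 18 primitive endoderm genes 16 were tested. Called higher were 7 (43.8%) and lower 3 (18.8%), against 19.9% and 19.0% of all genes. In the Bod1L, Mll2 and Setd1a lines 1, 7 and 0 were called higher (8.74%, 10.5% and 0.233% of all genes). Called lower were 3, 3 and 0 (9.58%, 9.70% and 0.0476%). Without the Mll2 line, 0 of 15 tested were called higher (1883 of 19312 over all genes) and 1 lower. Sox17, which is also in the streak list, rose (4.53 ± 1.40, adjusted p = 0.026), with at most 0.299 CPM in ESCFCS. Its EpiSC levels (median 3.41 CPM) were 6.16 and 0.1695 CPM in the Bod1L line, 80.7 and 70.8 in the Mll2 line and 0.663 and 0.237 in the Setd1a line. Pdgfra rose as well (2.31 ± 0.77, adjusted p = 0.0343), and was highest, at 61.8 CPM, in the first EpiSC library of the Bod1L line. Gata6 (adjusted p = 0.0675) and Gata4 (adjusted p = 0.368) were not called. The members called lower were Sox7, Amn and Lama1. Sox7 (-2.27 ± 0.44, adjusted p = 0.00302) and Amn (-2.99 ± 0.70, adjusted p = 0.0077) fell at low levels, Amn without overlap. Their medians were 0.294 and 0.193 CPM in EpiSC and 2.08 and 2.18 CPM in ESCFCS. Lama1, a laminin chain of basement membranes, fell (-2.28 ± 0.31, adjusted p = 0.000726), with 13.0 to 45.7 CPM (median 20.9) in EpiSC and 65.3 to 219 CPM (median 99.4) in ESCFCS. Without the first EpiSC library of the Bod1L line, 4 of the 7 higher calls were left. Over all lines no member of the trophoblast list was called higher. Of 12 tested (14 listed) 4 were called lower (33.3%, against 19.0% of all genes). They included Tfap2c, which also serves naive and germ cells (-2.63 ± 0.54, adjusted p = 0.00398). The levels of Tfap2c were 4.97 to 35.7 CPM (median 15.9) in EpiSC and 46.7 to 173 CPM (median 104) in ESCFCS. Single lines differed. In the Bod1L line 5 members were called lower (9.58% of all genes) and 0 higher. In the Mll2 line 3 were called higher and 2 lower (10.5% and 9.70% of all genes), and in the Setd1a line 0. Cdx2 fell in the Bod1L line (-6.56, adjusted p = 0.00794) and rose in the Mll2 line (3.98, adjusted p = 0.0262). The summed level of the trophoblast list was 76.3 to 886 CPM in EpiSC and 158 to 738 CPM in ESCFCS, and its placental marker Prl3d1 had no reads in either group.

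The Nodal and Activin pathway list had 9 members called higher and 2 lower of 22 (median 0.57). Lefty1, a Nodal inhibitor that Activin and Nodal signalling induces, had 337 and 296 CPM in the Bod1L line, 212 and 59.1 in the Mll2 line and 364 and 544 in the Setd1a line in EpiSC. ESCFCS libraries had 21.0 and 19.0 CPM in the Bod1L line, 19.6 and 67.8 in the Mll2 line and 59.99 and 24.9 in the Setd1a line. It rose by 3.03 on the log2 scale (SE 0.52, adjusted p = 0.00182), and the only EpiSC library inside the ESCFCS range was the second of the Mll2 line. Lefty2, a close relative whose reads may be hard to separate from Lefty1, was not called, with 18.1 to 315 CPM (median 46.6) in EpiSC and 39.8 to 214 CPM (median 62.8) in ESCFCS (adjusted p = 0.601). Neither was the ligand Nodal, with 22.7 to 165 CPM (median 62.8) in EpiSC and 41.9 to 64.8 CPM (median 53.1) in ESCFCS (adjusted p = 0.383). Pcsk6, a convertase that cuts the Nodal precursor, fell (-2.42 ± 0.42, adjusted p = 0.00195).

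In the BMP list 6 of 16 genes were called higher and 2 lower, while the median was negative (-0.29; 0.13 without the Setd1a line). The ligand Bmp7 rose (2.97 ± 0.33, adjusted p = 0.000346), with 12.5 to 79.6 CPM (median 27.1) in EpiSC and 1.51 to 6.25 CPM (median 4.18) in ESCFCS, and so did the transducer Smad5 (1.14 ± 0.15, adjusted p = 0.000742). The members that fell were the ligand Bmp4 (-1.30 ± 0.48, adjusted p = 0.0498) and Id2, a target that holds back differentiation factors (-1.68 ± 0.54, adjusted p = 0.0307). Id2 had 3.46 to 50.5 CPM (median 8.69) in EpiSC and 21.5 to 49.9 CPM (median 33.4) in ESCFCS. The target Id1, with 3.91 to 32.1 CPM (median 9.17) in EpiSC and 9.73 to 79.7 CPM (median 46.9) in ESCFCS, was not called (-1.56 ± 0.64, adjusted p = 0.0749; 0.0117 with DESeq2, and 0.0493 and 0.0406 without the first EpiSC or first ESCFCS library of the Mll2 line). Without the Setd1a line neither Bmp4 (adjusted p = 0.176) nor Id2 (0.213) was called. Leaving out single libraries ended the call of Bmp4 in 10 of 12 cases (up to 0.118). For Id2 these were either EpiSC library of the Setd1a line and the first EpiSC or ESCFCS library of the Mll2 line (up to 0.0809). The FGF and ERK list had 4 called higher and 2 lower of 24, shares close to or below those over all genes. Spry1 and Dusp6, feedback inhibitors of the pathway, rose by 1.46 (SE 0.25, adjusted p = 0.0019) and 1.38 (SE 0.35, adjusted p = 0.011). Dusp6 had 106 to 304 CPM (median 177) in EpiSC and 29.7 to 125 CPM (median 76.5) in ESCFCS. The 2 members that fell were Spry4, also a feedback inhibitor, and Etv5, a transcription factor that ERK signalling induces. Spry4 had 17.1 to 137 CPM (median 57.4) in EpiSC and 89.2 to 208 CPM (median 123) in ESCFCS (-1.17 ± 0.34, adjusted p = 0.0204), and lost its call without the second EpiSC or second ESCFCS library of the Bod1L line (0.0512 and 0.0521). Etv5 (-0.59 ± 0.21, adjusted p = 0.0461) was not called in 9 of 12 such cases (up to 0.12). The median of the ERK list was 0.31, and 0.72 without the Setd1a line.

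Germline genes formed the other large group that fell. Of 24 listed, 23 were tested, 16 were called lower and none higher, and the median was -4.52. Mael, which works in the piRNA pathway that silences transposons, had 0 and 0 CPM in the Bod1L line, 0 and 0.182 in the Mll2 line and 12.7 and 1.62 in the Setd1a line in EpiSC. ESCFCS libraries had 15.9 and 28.1 CPM in the Bod1L line, 31.4 and 8.76 in the Mll2 line and 21.4 and 15.2 in the Setd1a line (-6.01 ± 1.62, adjusted p = 0.0144). Ddx4, the germ cell helicase VASA, had 0.0363 and 0.282 CPM in the Bod1L line, 1.88 and 1.30 in the Mll2 line and 40.6 and 8.68 in the Setd1a line in EpiSC. ESCFCS libraries had 26.9 and 34.1 CPM in the Bod1L line, 30.3 and 26.3 in the Mll2 line and 39.6 and 37.3 in the Setd1a line (-3.89 ± 1.08, adjusted p = 0.0164). In both, the first EpiSC library of the Setd1a line lay within or above the ESCFCS range, and the EpiSC libraries of the Bod1L and Mll2 lines lay at or below 1.88 CPM. Dazl, an RNA-binding protein of germ cells, had the same order, with 0.0363 and 0.0565 CPM in the Bod1L line, 0.0319 and 0.121 in the Mll2 line and 28.3 and 2.41 in the Setd1a line in EpiSC and 5.68 to 32.6 CPM (median 21.4) in ESCFCS (-5.54 ± 1.68, adjusted p = 0.0234). The call of Dazl was lost without any 1 EpiSC library of the Bod1L or Mll2 line (adjusted p from 0.0652 to 0.0704).

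The median germline gene stood at 0.522% of its ESCFCS level in EpiSC of the Bod1L line, 1.19% in the Mll2 line and 62.3% in the Setd1a line. No germline gene was called line dependent by edgeR, though 18 of 24 had an unadjusted p below 0.05 (13.0% of all genes) and DESeq2 called 14 (6.56% of all genes). Without the Setd1a line 16 genes were called and the median was -6.09. The count was 9 without the second EpiSC library of the Bod1L line or either one of the Mll2 line. Without the whole Bod1L line 1 of 23 was called lower (1662 of 19141 over all genes). Without the whole Mll2 line it was also 1 of 23 (1402 of 19312 over all genes).

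Many germline promoters carry an E-box bound by MYC-type and E2F6-MGA complexes, and these letters were looked for in the 250 bases upstream of RefSeq gene starts (GRCm38.p6). The motif CACGTG, which reads the same on both strands, was in 15 of 27 germline windows (55.6%; 23 of 24 genes matched, 12 with the motif), against 6.02% of 32851 windows of all genes and 9.81% of the 8970 windows with at least 15 CpG. The letters TTCCCGC, an E2F-type site searched on both strands, were in 6 of 27 windows (22.2%, of 5 genes). They were in 3.82% of all windows and 9.60% of the CpG-rich ones. The germline windows held a median of 15 CpG and all windows 6. The windows of Mael and Ddx4 are shown because both genes fell, with the motif CACGTG in capitals, 5′ to 3′ on the gene's strand and ending at the base before the start.
Mael, chr1:166238745-166238994, minus strand: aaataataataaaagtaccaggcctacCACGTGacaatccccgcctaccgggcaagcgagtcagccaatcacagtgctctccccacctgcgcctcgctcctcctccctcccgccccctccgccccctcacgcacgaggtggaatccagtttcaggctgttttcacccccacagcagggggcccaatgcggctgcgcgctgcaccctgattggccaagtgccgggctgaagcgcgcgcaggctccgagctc
Ddx4, chr13:112652311-112652560, minus strand: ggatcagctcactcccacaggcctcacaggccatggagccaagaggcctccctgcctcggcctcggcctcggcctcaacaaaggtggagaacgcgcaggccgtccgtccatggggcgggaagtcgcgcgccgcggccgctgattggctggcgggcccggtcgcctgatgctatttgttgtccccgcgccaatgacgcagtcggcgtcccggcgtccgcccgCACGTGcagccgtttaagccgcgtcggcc

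In the DNA methylation list, 6 of 15 genes were called lower (40%) and 2 higher (13.3%), against 19.0% and 19.9% of all genes. Dnmt3l, the cofactor of the de novo methyltransferases, had 0 and 0.0283 CPM in the Bod1L line, 0.127 and 2.00 in the Mll2 line and 136 and 80.4 in the Setd1a line in EpiSC. ESCFCS libraries had 217 and 389.9 CPM in the Bod1L line, 177 and 329.6 in the Mll2 line and 381 and 572 in the Setd1a line (-7.16 ± 1.68, adjusted p = 0.00765), without overlap. Tet1, which oxidises methylcytosine, fell without overlap (-1.87 ± 0.36, adjusted p = 0.00312), with 122 to 533 CPM (median 204) in EpiSC and 615 to 1108 CPM (median 896) in ESCFCS. The de novo enzymes themselves were not called. Dnmt3a had 139 to 1058 CPM (median 245) in EpiSC and 73.2 to 385 CPM (median 195) in ESCFCS (adjusted p = 0.2). Dnmt3b had 234 to 532 CPM (median 325) in EpiSC and 185 to 1332 CPM (median 559.9) in ESCFCS (adjusted p = 0.0728). Dnmt3b was called lower without the first ESCFCS library of the Mll2 line (adjusted p = 0.0109).

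Cholesterol synthesis had the highest share of called members among the lists. Of its 21 genes 20 were called higher, with a median of 1.28, and 11 of the 21 had no overlap between the groups. Hmgcs1, which makes the precursor of mevalonate, had 751 and 864 CPM in the Bod1L line, 1462 and 1339 in the Mll2 line and 756 and 868 in the Setd1a line in EpiSC. ESCFCS libraries had 255 and 224 CPM in the Bod1L line, 196 and 280.2 in the Mll2 line and 266 and 165 in the Setd1a line (2.07 ± 0.18, adjusted p = 0.000162). The lowest EpiSC library was thus well above the highest ESCFCS library in every line. Msmo1, a late demethylating enzyme, had 174 to 861 CPM (median 336) in EpiSC and 49.2 to 193 CPM (median 71.9) in ESCFCS (2.11 ± 0.22, adjusted p = 0.000275).

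The rise of this group did not follow the naive genes by line. Median differences in log2(CPM + 2) of the 21 genes were 1.29 in the Bod1L line, 1.07 in the Mll2 line and 1.32 in the Setd1a line, whose naive genes had kept the most, and none of the 21 was called line dependent (edgeR; none at an unadjusted p below 0.05 and none with DESeq2). In knockout libraries 18 were called higher (median 1.18). ESCFCS medium contained serum, which holds lipoproteins; medium changed with state, and their parts cannot be told apart.

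Cholesterol genes are controlled by SREBP factors, which bind sterol response elements next to NF-Y boxes. Of the 21 genes 14 were matched, with 17 windows. The NF-Y box CCAATCA, searched on both strands, was in 8 of 17 windows (47.1%), against 7.23% of all windows and 8.60% of the CpG-rich ones. The sterol element TCACNCCAC was in 1 of 17 windows, that of Hmgcs1, and in 1.05% of all. The STAT site TTCCNGGAA was in none of 23 windows of the LIF list and in 0.913% of all, which says only that these letters are not in that window. The windows of Hmgcs1 and Msmo1, which had the largest fold changes of the list, are shown with TCACNCCAC and CCAATCA in capitals.
Hmgcs1, chr13:119690101-119690350, plus strand: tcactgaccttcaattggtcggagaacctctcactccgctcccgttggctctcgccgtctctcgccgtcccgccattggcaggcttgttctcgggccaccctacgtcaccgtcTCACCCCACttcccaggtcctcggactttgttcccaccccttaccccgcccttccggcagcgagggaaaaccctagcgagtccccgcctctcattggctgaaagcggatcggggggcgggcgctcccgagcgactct
Msmo1, chr8:64733579-64733828, minus strand: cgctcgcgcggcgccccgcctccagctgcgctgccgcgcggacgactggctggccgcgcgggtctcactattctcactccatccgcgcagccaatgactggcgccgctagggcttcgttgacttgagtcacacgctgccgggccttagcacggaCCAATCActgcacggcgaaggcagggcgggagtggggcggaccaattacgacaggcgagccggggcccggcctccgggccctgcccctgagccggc

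Of 19 cell cycle regulators 5 were called higher (26.3%) and 2 lower (10.5%), against 19.9% and 19.0% of all genes. Ccnd2, cyclin D2 of the G1 phase, had 509 and 342 CPM in the Bod1L line, 212 and 160 in the Mll2 line and 174 and 96.6 in the Setd1a line in EpiSC. ESCFCS libraries had 42.1 and 21.6 CPM in the Bod1L line, 9.93 and 6.86 in the Mll2 line and 18.7 and 17.7 in the Setd1a line (3.70 ± 0.31, adjusted p = 0.000162). Ccnd1 was not called at 92.8 to 213 CPM (median 159) in EpiSC and 109 to 231 CPM (median 169) in ESCFCS (adjusted p = 0.855). Cdkn1a, the inhibitor p21, rose without overlap (1.95 ± 0.24, adjusted p = 0.000458). It had 129.8 to 271 CPM (median 171) in EpiSC and 31.0 to 92.2 CPM (median 48.5) in ESCFCS. Of 20 p53 targets 9 (45%), Cdkn1a among them, were called higher and none lower. Ccne1, cyclin E1 of S phase entry, fell (-1.70 ± 0.27, adjusted p = 0.00123), with 39.7 to 142 CPM (median 56.3) in EpiSC and 126 to 288 CPM (median 219.8) in ESCFCS.

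**Figure D4:**
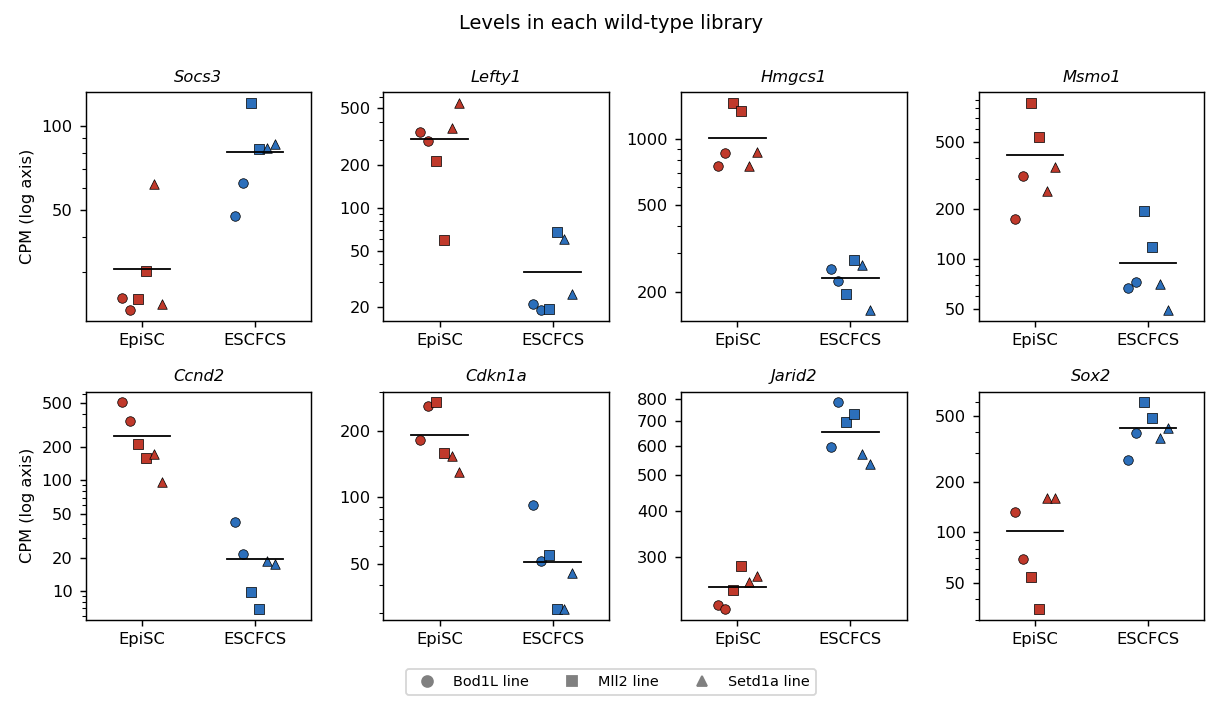
CPM on a log axis of Socs3, Lefty1, Hmgcs1, Msmo1, Ccnd2, Cdkn1a, Jarid2 and Sox2 in each library, EpiSC left and ESCFCS right, with markers for the lines and a line for the group mean (n = 6). Ccnd2 lies at 96.6 to 509 CPM in EpiSC and 6.86 to 42.1 CPM in ESCFCS, and Lefty1 has 1 EpiSC library, the second of the Mll2 line, at the ESCFCS level.

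Of 32 homologous recombination and Fanconi genes 14 were called lower (43.8%, against 19.0% of all genes) and 1 higher (median -0.43). The other 17 were not called. Brca2, a mediator of homologous recombination, had 67.3 to 133 CPM (median 84.5) in EpiSC and 137 to 238 CPM (median 190.3) in ESCFCS (-1.05 ± 0.17, adjusted p = 0.00148). Exo1, a resection nuclease, fell by 1.07 (SE 0.16, adjusted p = 0.000965) and Fancm, a translocase of the Fanconi pathway, by 1.19 (SE 0.18, adjusted p = 0.00105), both without overlap. Brca1 had 74.0 to 227 CPM (median 91.9) in EpiSC and 154 to 289.7 CPM (median 185) in ESCFCS (-0.89 ± 0.19, adjusted p = 0.00547), and its highest EpiSC library was the first of the Setd1a line. Knockout libraries gave 13 lower and none higher.

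Among Polycomb genes more fell than rose. Of 26 members 11 were called lower (42.3%) and 5 higher (19.2%), against 19.0% and 19.9% of all genes (median -0.49). The share called higher was thus close to that over all genes. The core subunits Eed and Suz12 fell by 1.25 (SE 0.15, adjusted p = 0.000409) and 1.06 (SE 0.18, adjusted p = 0.00172), with Eed at 65.4 to 95.7 CPM (median 78.3) in EpiSC and 152 to 248 CPM (median 184) in ESCFCS. The catalytic Ezh2 was not called at 94.6 to 194 CPM (median 155) in EpiSC and 171 to 278 CPM (median 203) in ESCFCS (-0.49 ± 0.18, adjusted p = 0.0577), and was called lower without the first EpiSC library of the Setd1a line (adjusted p = 0.0105). Jarid2, which guides PRC2 to its targets, had 223 and 217 CPM in the Bod1L line, 244 and 284 in the Mll2 line and 258 and 267 in the Setd1a line in EpiSC. ESCFCS libraries had 594 and 787 CPM in the Bod1L line, 695 and 728 in the Mll2 line and 571 and 536 in the Setd1a line (-1.39 ± 0.12, adjusted p = 0.000162). No EpiSC library came near the ESCFCS range, and within each state the lines lay close together beside that gap. Epop, a PRC2 partner found in embryonic stem cells, fell by 2.29 (SE 0.26, adjusted p = 0.000359). Cbx8, a chromodomain subunit of PRC1, rose at a low level (1.88 ± 0.40, adjusted p = 0.00502). The levels of Cbx8 were 1.70 to 8.63 CPM (median 2.19) in EpiSC and 0.509 to 1.63 CPM (median 0.904) in ESCFCS. Of the 5 higher calls 3 were left without the first EpiSC library of the Mll2 line, the second ESCFCS library of the Bod1L or Mll2 line, or the first ESCFCS library of the Setd1a line.

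The H3K4 methyltransferase complexes, to which the genes targeted in these lines belong, were 11 lower and none higher of 21 tested (22 listed). The share called lower was 52.4%, against 19.0% of all genes, and the median was -0.29. Dpy30, a core subunit, fell without overlap, with 42.0 to 60.3 CPM (median 49.0) in EpiSC and 73.0 to 138 CPM (median 96.5) in ESCFCS (-0.96 ± 0.14, adjusted p = 0.000956). Setd1a had 37.9 to 48.8 CPM (median 42.4) in EpiSC and 46.1 to 60.5 CPM (median 56.7) in ESCFCS (-0.37 ± 0.10, adjusted p = 0.0135). Bod1l had 172 to 230.5 CPM (median 223) in EpiSC and 213 to 357 CPM (median 292) in ESCFCS (-0.49 ± 0.14, adjusted p = 0.0209). Kmt2b, the gene of the Mll2 line, had 142 to 169 CPM (median 151) in EpiSC and 164 to 218 CPM (median 191) in ESCFCS (-0.29 ± 0.10, adjusted p = 0.0361). These small differences depended on single libraries or lines. Setd1a lost its call without the Bod1L, Mll2 or Setd1a line (adjusted p = 0.127, 0.0547 and 0.052) and without the filter on low counts (0.0987). Kmt2b stayed called only without the first EpiSC or the first ESCFCS library of the Mll2 line (adjusted p up to 0.12 otherwise). Bod1l lost its call without either EpiSC library or the second ESCFCS library of the Bod1L line, the first ESCFCS library of the Mll2 line or that of the Setd1a line (up to 0.0601). The count of 11 was 5 without the second ESCFCS library of the Bod1L line, 6 without the first of the Setd1a line, and 7 without the first of the Mll2 line or the second EpiSC library of the Bod1L or Mll2 line.

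Genes of fibroblasts and mesenchyme rose, with 13 of 17 tested (18 listed) called higher and none lower (median 2.84). Col3a1, a fibrillar collagen, had 3426 and 412 CPM in the Bod1L line, 20.6 and 20.1 in the Mll2 line and 255 and 30.9 in the Setd1a line in EpiSC. ESCFCS libraries had 13.2 and 6.64 CPM in the Bod1L line, 0.258 and 0.305 in the Mll2 line and 0.481 and 1.78 in the Setd1a line (7.04 ± 0.77, adjusted p = 0.000337). Twist1, a mesenchymal transcription factor, had a tighter range of 10.7 to 37.9 CPM (median 13.8) in EpiSC and 0.999 to 3.38 CPM (median 1.29) in ESCFCS (3.33 ± 0.23, adjusted p = 0.000125). The list summed to 524 to 9065 CPM in EpiSC, highest in the first library of the Bod1L line, and to 104 to 1547 CPM in ESCFCS, highest in the first library of the Bod1L line there too. All 18 markers had reads in both groups. That EpiSC library also had the highest Col1a1, another fibrillar collagen, among 1562 and 345 CPM in the Bod1L line, 27.3 and 54.0 in the Mll2 line and 524 and 73.5 in the Setd1a line in EpiSC and 4.85 to 162 CPM (median 26.4) in ESCFCS (2.84 ± 0.68, adjusted p = 0.00809). Cdh1, the epithelial cadherin, was lowest there, among 48.3 and 624 CPM in the Bod1L line, 966 and 973 in the Mll2 line and 162 and 288 in the Setd1a line in EpiSC. ESCFCS libraries had 339.7 to 684 CPM (median 647) of it, and it was not called (-0.50 ± 0.53, adjusted p = 0.48). Without that EpiSC library 13 mesenchymal genes were called higher and the median was 2.54. Whether these transcripts came from other cells in the culture was not tested.

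Among 18 genes of epithelial to mesenchymal transition 10 were called higher and none lower. Vim, the intermediate filament vimentin, had 204 to 1112 CPM (median 554) in EpiSC and 39.8 to 485 CPM (median 100) in ESCFCS (2.25 ± 0.55, adjusted p = 0.0089). Tnc, an extracellular glycoprotein, rose without overlap (6.88 ± 1.12, adjusted p = 0.00143), with 59.0 to 1478 CPM (median 234) in EpiSC and 0 to 46.8 CPM (median 3.16) in ESCFCS. In the neural list 8 of 15 tested (16 listed) were called higher and none lower. Sox1, an early neural factor, had 81.8 and 3.13 CPM in the Bod1L line, 49.6 and 4.48 in the Mll2 line and 26.3 and 28.0 in the Setd1a line in EpiSC and 0.198 to 1.68 CPM (median 0.571) in ESCFCS (5.63 ± 0.94, adjusted p = 0.00162). The list summed to 325 to 808 CPM in EpiSC and 163 to 327 CPM in ESCFCS.

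Hox genes, which set position along the body axis, rose at low levels. Of 25 listed 23 were tested, and 18 were called higher and none lower. Their summed level was 8.20 to 180 CPM in EpiSC and 1.73 to 14.9 CPM in ESCFCS. Like the mesenchymal sum, it was highest in the first EpiSC library of the Bod1L line. In EpiSC of the Setd1a line the Hox sum was 96.6 CPM in the first and 26.1 CPM in the second library, and the mesenchymal sum 2182 and 524 CPM in the same libraries. The Mll2 line had the opposite order, with Hox sums of 26.8 and 8.20 CPM and mesenchymal sums of 1003 and 1938 CPM. The part of mesenchymal cells in the Hox levels was not tested. Hoxb2 had 21.8 and 3.39 CPM in the Bod1L line, 2.10 and 0.333 in the Mll2 line and 17.0 and 4.03 in the Setd1a line in EpiSC and at most 0.289 CPM in ESCFCS (adjusted p = 0.000823). Without the Setd1a line 9 of 18 tested were called, and in knockout libraries 20.

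Mitochondrially encoded genes were 8 lower and none higher of 13 (median -0.64). The median member stood at 62.7%, 70.0% and 60.1% of its ESCFCS level in EpiSC of the Bod1L, Mll2 and Setd1a lines. All 7 subunits of complex I, and mt-Co1 alone among the rest, were called. mt-Nd1 had 812 to 1901 CPM (median 1210) in EpiSC and 3038 to 3900 CPM (median 3444) in ESCFCS (-1.46 ± 0.18, adjusted p = 0.000541). mt-Nd6, the member coded on the other strand, had 49.6 to 91.0 CPM (median 66.6) in EpiSC and 99.7 to 238 CPM (median 175) in ESCFCS (-1.33 ± 0.19, adjusted p = 0.000867). Knockout libraries gave 2 lower calls and a median of -0.0261. In wild type the share of mitochondrial reads was lower in EpiSC too. In knockout libraries it was 3.10% to 6.27% of counts in EpiSC and 2.46% to 5.85% in ESCFCS.

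Targets of the integrated stress response were 12 higher and none lower of 19 (median 0.83). Vldlr, a lipoprotein receptor, had 18.9 to 118 CPM (median 67.7) in EpiSC and 4.92 to 12.6 CPM (median 6.50) in ESCFCS (3.03 ± 0.29, adjusted p = 0.000215). Ddit4, an inhibitor of mTORC1, had 186 to 785 CPM (median 497) in EpiSC and 60.4 to 104 CPM (median 99.3) in ESCFCS (2.47 ± 0.32, adjusted p = 0.000579). The count was 6 without the second EpiSC library of the Setd1a line and 7 without either ESCFCS library of the Bod1L line. Glycolysis genes showed no common direction, with 5 higher (22.7%) and 3 lower (13.6%) of 22, against 19.9% and 19.0% of all genes. Aldoc, an aldolase, rose (1.84 ± 0.32, adjusted p = 0.00185). Its levels were 26.3 to 52.98 CPM (median 43.9) in EpiSC and 3.98 to 18.2 CPM (median 12.3) in ESCFCS. Pfkp, the platelet phosphofructokinase, fell (-1.59 ± 0.35, adjusted p = 0.00566). The levels of Pfkp were 22.2 to 125 CPM (median 68.8) in EpiSC and 133 to 321 CPM (median 202) in ESCFCS.

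Of 29 imprinted genes 8 were called higher (27.6%) and 2 lower (6.9%), against 19.9% and 19.0% of all genes. Igf2, a fetal growth factor that mesenchyme also expresses, had 1721 and 345 CPM in the Bod1L line, 471 and 156 in the Mll2 line and 236 and 27.4 in the Setd1a line in EpiSC. ESCFCS libraries had 83.1 and 33.8 CPM in the Bod1L line, 8.41 and 5.397 in the Mll2 line and 6.83 and 72.6 in the Setd1a line (3.83 ± 0.95, adjusted p = 0.00988). Its highest EpiSC library was the one with the highest collagens. Without the second ESCFCS library of the Bod1L line 5 of the 8 were left. On the X chromosome the median log2 fold change of 832 genes was -0.26, with 10.9% called higher and 23.2% lower, against 0.0284, 20.3% and 18.7% on autosomes. The X median was -0.33 in the Bod1L line, -0.50 in the Mll2 line and -0.0638 in the Setd1a line. Tsix, the antisense RNA that restrains Xist, fell without overlap (-2.78 ± 0.73, adjusted p = 0.0129), with 0.0363 to 5.51 CPM (median 3.04) in EpiSC and 11.9 to 60.6 CPM (median 14.7) in ESCFCS; the counting used the strand.

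Within single lines, with 2 libraries against 2, 3851 of 21028 genes (18.3%) were called in the Bod1L line, 1837 higher (8.74%) and 2014 lower (9.58%). In the Mll2 line 4257 (20.2%) were called, 2217 higher (10.5%) and 2040 lower (9.70%), and in the Setd1a line 59 (0.281%), 49 higher (0.233%) and 10 lower (0.0476%). The Setd1a line had 4015 genes at an unadjusted p below 0.05, and DESeq2 called 1664 there. Direction held more widely than the calls: 3982 of the 4001 genes called higher over all lines, and 3754 of the 3812 called lower, differed in the same direction in the Setd1a line. Their median log2 differences in the Bod1L, Mll2 and Setd1a lines were 1.32, 1.36 and 1.01 for the higher genes and -1.14, -1.14 and -0.69 for the lower ones. Since these genes were chosen with all 3 lines in the fit, this is a description.

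**Figure D5:**
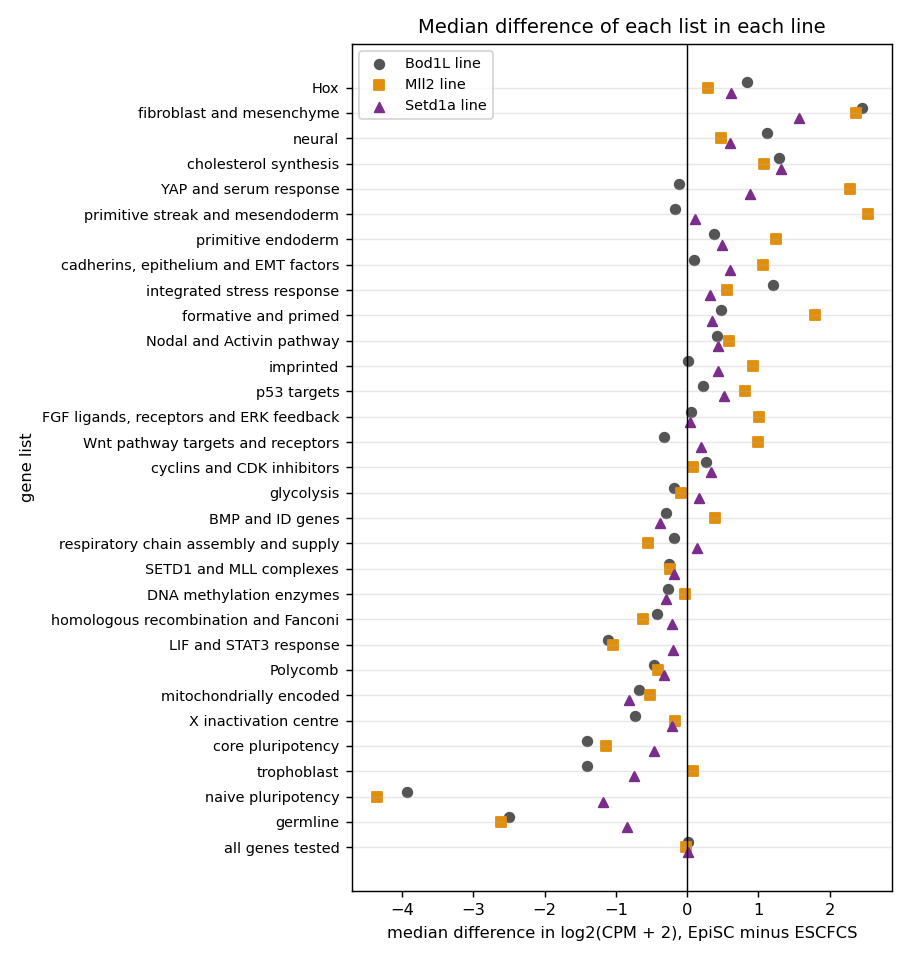
Median difference in log2(CPM + 2), EpiSC minus ESCFCS, of each gene list in the Bod1L, Mll2 and Setd1a lines. For the cholesterol list the 3 lines lie at 1.29, 1.07 and 1.32, while for the naive list the Setd1a line lies at -1.18 and the others at -3.92 and -4.36.

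The test of the difference between lines called 119 genes (0.566%), and in 65 of these the Setd1a line lay farthest from the mean of the others. A contrast of the Setd1a line with the mean of the other lines, chosen after the values were seen, called 150 genes (0.713%), 145 (0.69%) with a more positive and 5 (0.0238%) with a more negative difference in the Setd1a line. A contrast of the Mll2 line with the Bod1L line called 29 genes (0.138%). Esrrb (adjusted p = 0.00349), Tcl1 (0.0079) and Mybl2 (0.0106), a MYB factor of cycling cells, were among the line dependent genes. Mybl2 had 83.3 and 115 CPM in the Bod1L line, 47.1 and 45.7 in the Mll2 line and 254 and 320.3 in the Setd1a line in EpiSC. ESCFCS libraries had 446 and 370.3 CPM in the Bod1L line, 962 and 1006 in the Mll2 line and 582 and 740.5 in the Setd1a line. Cyp26a1, which degrades retinoic acid, was set apart by the Mll2 line, with 17.7 and 9.38 CPM in the Bod1L line, 179 and 245 in the Mll2 line and 1.73 and 2.56 in the Setd1a line in EpiSC. ESCFCS libraries had 22.0 and 8.25 CPM in the Bod1L line, 0.806 and 0.679 in the Mll2 line and 2.31 and 1.90 in the Setd1a line (adjusted p = 0.00364). Tmprss2, a membrane serine protease, had 0.0363 and 0.0847 CPM in the Bod1L line, 80.8 and 52.6 in the Mll2 line and 0.807 and 0.553 in the Setd1a line in EpiSC. ESCFCS libraries had 11.8 and 4.33 CPM in the Bod1L line, 1.13 and 1.39 in the Mll2 line and 1.19 and 2.10 in the Setd1a line (adjusted p = 0.00228). EpiSC lay above ESCFCS in the Mll2 line and below it in the others. Tmprss2 and Cyp26a1 kept the call without any 1 of the 12 libraries; Esrrb and Mybl2 lost it without the first ESCFCS library of the Setd1a line (0.0505 and 0.0572), and Tcl1 without either (0.0804 and 0.0669). The count of 119 ranged from 8, without the first ESCFCS library of the Setd1a line, to 258, without the second EpiSC library of the Bod1L line. It was 12 without the second ESCFCS library of the Setd1a line, 68 without its first EpiSC library and 250 without its second. It was 24 and 37 without the first and second ESCFCS library of the Bod1L line, 28 and 30 for the Mll2 line, and 229 without the first EpiSC library of the Bod1L line.

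The 12 knockout libraries of the same states gave 7561 calls of 20198 genes (37.4%), 3925 higher (19.4%) and 3636 lower (18.0%). Of the genes called in wild type, 2991 (74.8%) of those higher and 2732 (71.7%) of those lower were called in the same direction in knockouts, and 0 in the opposite direction. Those make up 76.2% and 75.1% of the knockout calls. These libraries are not independent of the wild-type ones: over 20098 genes, the replicate difference in wild type correlated with that in knockouts of the same line by 0.819, 0.714 and 0.768 in EpiSC and 0.709, 0.770 and 0.308 in ESCFCS for the Bod1L, Mll2 and Setd1a lines. The naive list was 23 lower and none higher in knockouts. Among knockout EpiSC, those of the Setd1a line again held the most of the naive genes, at a median of 35.9% of ESCFCS.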

How the data were processed

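The deposited table holds raw read counts per gene for 36 libraries. Per the file headers the authors counted primary alignments of mapping quality 1 or more with featureCounts 1.5.2 in reverse-stranded mode, and the submitters' processing notes name GSNAP and GRCm38. After removal of 92 ERCC lines without reads, 49671 genes were left, 345 without a symbol. Only the 12 wild-type libraries entered the comparison, and 12 knockout libraries a repeat of it.

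Counts were fitted with edgeR 4.0.16 in R 4.3.3 (quasi-likelihood F test, TMM size factors, low counts filtered by filterByExpr at 10, line as an additive term, 8 residual degrees of freedom; 6 for single lines and line dependence). Alternatives used DESeq2 1.42.0, other size factors, no filter, left-out libraries and lines, and a replicate block. The scripts were tested on simulated data. In all 18 pairs of replicates of a group, the libraries differed by more than sampling noise. Promoter windows came from RefSeq tables of GRCm38.p6, matched by symbol.

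The gene lists and members were chosen with earlier results of these data known, and some lists share members. Named genes are members of the lists taken by their place in the list or by size of change, the genes of largest change or line dependence, and the targeted genes. Of those that the rule gives, not all are discussed, and 83 genes were followed in the checks below. Outside these 83, Cdx2, Dppa5a and Gdf3 were also called line dependent (edgeR F test, adjusted p = 0.0403, 0.011 and 0.0426).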

Additional observations from a re-analysis of the deposited data

Results flagged for a closer look

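A value was taken as far from its group where the gap to its nearest neighbour was large beside the range of the 6 libraries (Dixon's criterion on log2(CPM + 2)). This held in 9 of 176 groups of 6, and chance alone gives about 5%.

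The first EpiSC library of the Setd1a line was the farthest in 6 of the 9. It was the highest EpiSC library for the LIF target Socs3 (61.7 CPM), for the germline genes Dazl (28.3 CPM) and Mael (12.7 CPM), for the repair genes Brca1 (227 CPM) and Fancm (73.3 CPM), and for the PRC2 gene Suz12 (511 CPM). The ESCFCS libraries had medians of 82.6, 21.4, 18.7, 185, 99.4 and 529 CPM for these genes in the same order, so this EpiSC library lay nearer to ESCFCS than its partner did. Among ESCFCS libraries, the second of the Setd1a line had the lowest Cdh1 (340 CPM), and the second of the Bod1L line the highest Tsix (60.6 CPM). On the first principal component the first ESCFCS library of the Bod1L line, at 19.8, was the lowest ESCFCS library and the nearest to EpiSC.

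The difference between EpiSC and ESCFCS depended on the line for 9 of the 83 genes followed (edgeR F test over 21028 genes). The adjusted p was 0.0395 for Zfp42, 0.00349 for Esrrb, 0.0372 for Tdh, 0.0079 for Tcl1, 0.0344 for Dnmt3l and 0.0106 for Mybl2, which were closest to their ESCFCS level in the Setd1a line. It was 0.0366 for T, 0.00228 for Tmprss2 and 0.00364 for Cyp26a1, which were highest in EpiSC of the Mll2 line. Zfp42 kept this call without 5 of the 12 libraries taken in turn, Tdh without 5, Dnmt3l without 5 and T without 6. Zfp42 was not called without either EpiSC library of the Bod1L line, the first EpiSC library of the Setd1a line, or any ESCFCS library of these lines (0.0588 to 0.159). Tdh and Dnmt3l were not called without the first EpiSC library of the Setd1a line or any 1 of the 6 ESCFCS libraries (0.0648 to 0.188 and 0.0514 to 0.147).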

How the results depend on the processing

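The wild-type count of 7813 calls was 9345 with DESeq2, 7872 with RLE size factors (3902 higher and 3970 lower), 7392 without a filter on low counts, 9642 with all 36 libraries in 1 model and 7381 without both EpiSC libraries of the Setd1a line, a setting chosen after the data were seen. It was 3950 without the Bod1L line, 3285 without the Mll2 line and 1335 when tested against a log2 fold change of 1 (glmTreat). Leaving out single libraries gave 6106 to 8047 calls. The knockout count of 7561 was 4154 without the Bod1L line and 3200 without the Mll2 line, both chosen after the data were seen, and 5987 to 7686 without single libraries. Line dependence (119 genes) gave 2479 genes without a filter, 1325 with DESeq2, 679 with all libraries in 1 model, 29 for the Mll2 line against the Bod1L line (chosen after the data were seen), and 8 to 258 without single libraries. Within lines, the Setd1a line had 2242 calls without a filter, 1664 with DESeq2, 664 with all libraries in 1 model and 0 to 116 without single libraries. The Bod1L line had 5790 with DESeq2 and 438 to 2938 without single libraries, and the Mll2 line 1387 to 1610. Leaving out 1 library of a line leaves 1 in that arm, which is then assumed to vary like the other groups, and the cause of these shifts was not tested.

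Correlations of replicate differences between EpiSC and ESCFCS were -0.0595, 0.0987 and 0.224 in the Bod1L, Mll2 and Setd1a lines, not all above 0.1, so the replicate numbers were not used as pairs in the reported values, although Y-linked levels followed them in the Mll2 and Setd1a lines. With the replicate block the counts were 7059 (3600 higher and 3459 lower) in wild type and 5959 in knockouts. Of the 83 genes followed 65 were called, and 38 were called in the same direction under each of 21 alternatives, glmTreat aside. No called gene changed direction under any alternative. Leaving out the Bod1L line ended the call of 20 of the 83 genes and leaving out the Mll2 line that of 25. Of 703 median values of lists under the alternatives 51 moved by more than the spread between libraries, and 16, in 6 lists, changed sign. At this depth a gene of 1 CPM has about 25 or more reads per library.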

Other observations

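A list of 18 genes of the 2-cell-like state, most of them members of multicopy families whose reads may be shared between copies, had no member called among 13 tested over all lines (edgeR), none at an unadjusted p below 0.05, and 1 called higher with DESeq2. Within lines, 6 of 15 tested were called lower in the Bod1L line (9.58% of all genes) and 0 in the Mll2 and Setd1a lines. Line dependence was called for 1 of the 15 by edgeR (0.566% of all genes) and for 11 by DESeq2 (6.56%). At an unadjusted p below 0.05 it held for 14 (13.0% of all genes). In EpiSC the list summed to 0.290 and 0.480 CPM in the Bod1L line, 0.765 and 1.15 in the Mll2 line and 310 and 3.51 in the Setd1a line. In ESCFCS it summed to 49.8 and 78.5 CPM in the Bod1L line, 0.677 and 0.781 in the Mll2 line and 1.41 and 1.34 in the Setd1a line. The knockout EpiSC libraries of the Setd1a line summed to 810 and 53.9 CPM, again higher in the first library.

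Genes of the Y chromosome were not called in either direction (6 of 9 tested, edgeR; none at an unadjusted p below 0.05 and none with DESeq2). In EpiSC their summed levels were 249.4 and 223 CPM in the Bod1L line, 14.2 and 0.151 in the Mll2 line and 0.0865 and 76.1 in the Setd1a line, and in ESCFCS 229 and 246 CPM, 12.5 and 0.441, and 0.449 and 284 CPM in the same lines. The first and second replicates of the Mll2 line, and those of the Setd1a line, thus differed in the same direction in both states.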
